A study of Mus musculus with 33 samples.

Results

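The collagen and bone matrix genes of the mouse nose were followed here across every deposited RNA-seq value of the series: all collagen, matrix metalloproteinase (MMP), ADAMTS, laminin and fibrillin genes, taken by the start of their symbol, plus Dspp, Ifitm5, Sparc, Ibsp, Runx2 and Alpl taken by name. This gave 100 genes of the 15988 listed in at least 1 of the 2 tables. Of these, 92 of 14613 genes were listed for whole tissue and 93 of 14744 for sorted neurons, and 85 were in both. By role they were 6 bone and tooth genes, 11 fibrillar collagens, 8 basement membrane collagens, 24 other collagens, 11 laminins, 2 fibrillins, 14 MMPs, 18 ADAMTS proteases and 5 ADAMTS-like genes. The symbol rule also took in Col4a3bp, which encodes a ceramide transfer protein and no collagen. None of the 92 or 93 genes was lost to the filter on low values.

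Collagens are triple-helical proteins that form the fibers of bone, dentin and connective tissue and the sheets of the basement membrane. Fibers of type I collagen are mineralized by osteoblasts with the help of acidic proteins such as bone sialoprotein. Laminins and type IV collagen form the basement membrane under an epithelium, and MMPs and ADAMTS enzymes cut or trim these proteins. In the nose the sensory epithelium lies on a connective tissue layer over thin turbinate bones.

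All mice were 3 weeks old and were homozygous null (KO), heterozygous (Het) or wild type (WT) for Dnmt3a, the gene of an enzyme that adds methyl groups to unmethylated DNA. Which exons the null allele lacks is not given in the sources used here. For the main olfactory epithelium (MOE), there was 1 library per genotype and treatment, 6 in all. Animals spent 10 min in a clean cage and then 60 min with 80 µL of an equal mix of amyl acetate, acetophenone and octanal (odor) or of water. For mature olfactory sensory neurons (mOSN), which were sorted by flow cytometry, the table gave 1 pooled value per genotype from 2 libraries each, with no treatment. Both KO mOSN libraries were made with a NuGEN kit from 100 ng of RNA and both WT libraries with ScriptSeq from 200 ng, while Het had 1 library of each kit. Kit and genotype therefore cannot be told apart between KO and WT mOSN. All MOE libraries were made with NuGEN. The other 21 samples of the series were not analysed here.

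All levels are deposited RPKM-scale values, a read density per gene length and library depth, so that levels of different genes can be set side by side. Recovered whole reads were fewest in KO water, at 9410063, and most in Het odor, at 17639584, which limits the precision of members with few reads. Dnmt3a itself stood at 48.3 in KO odor and 56.1 in KO water, 66.6 in Het odor and 50.3 in Het water, and 89.0 in WT odor and 84.4 in WT water. In mOSN Dnmt3a was 56.2 in KO, 119.9 in Het and 175 in WT. The neuron marker Omp was listed in every MOE library, at 5752 in KO odor and 3296 in KO water, 249 in Het odor and 1582 in Het water, and 2717 in WT odor and 5962 in WT water. Het odor was thus far below the others for Omp. Nothing in the labels ties libraries to animals, and a p-value here covers the spread among these 6 libraries, which may be technical. In bulk tissue, fewer cells of a type and less RNA per cell cannot be told apart.

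Promoters of 69 of the 100 genes (75 promoters) were matched by symbol to RefSeq entries of build GRCm38.p6. The 250 bases before the transcription start are shown for 4 genes: Ibsp, Ifitm5 and Col3a1, which were lowest together in the KO odor library, and Mmp13, a collagenase of the same tissue that varied less. Capitals mark exact matches to the RUNX core TGTGGT, which reads ACCACA on the other strand, and to the promoter element TATAAA, which reads TTTATA on the other strand. Positions are counted back from the transcription start and give the match's first base. Ibsp lies at chr5:104299037-104299286 on the + strand with TTTATA at -28. Ifitm5 lies at chr7:140950244-140950493 on the - strand and holds none of these matches. Col3a1 lies at chr1:45311288-45311537 on the + strand with TATAAA at -117. Mmp13 lies at chr9:7272264-7272513 on the + strand with ACCACA at -118 and TATAAA at -16.
Ibsp: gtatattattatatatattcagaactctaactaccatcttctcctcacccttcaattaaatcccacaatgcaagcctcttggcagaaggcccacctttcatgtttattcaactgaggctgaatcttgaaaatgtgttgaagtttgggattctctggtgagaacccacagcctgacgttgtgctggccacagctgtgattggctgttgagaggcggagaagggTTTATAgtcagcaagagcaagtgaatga
Ifitm5: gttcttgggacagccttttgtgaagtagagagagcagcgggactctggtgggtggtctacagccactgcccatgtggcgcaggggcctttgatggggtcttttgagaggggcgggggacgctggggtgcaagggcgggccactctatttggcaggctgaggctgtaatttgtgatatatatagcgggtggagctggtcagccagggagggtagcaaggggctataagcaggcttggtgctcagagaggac
Col3a1: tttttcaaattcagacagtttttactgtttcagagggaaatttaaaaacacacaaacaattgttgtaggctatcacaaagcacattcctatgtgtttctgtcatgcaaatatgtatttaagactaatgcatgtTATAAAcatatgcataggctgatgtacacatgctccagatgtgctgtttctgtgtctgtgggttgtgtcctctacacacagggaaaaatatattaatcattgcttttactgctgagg
Mmp13: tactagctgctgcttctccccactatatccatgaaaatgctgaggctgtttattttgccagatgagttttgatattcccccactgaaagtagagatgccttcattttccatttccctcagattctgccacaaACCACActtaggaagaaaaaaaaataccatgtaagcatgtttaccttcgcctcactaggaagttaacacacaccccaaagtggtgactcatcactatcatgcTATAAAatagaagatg
Across the members' promoters, TGTGGT was found on either strand in 8 of 75, or 10.7%, against 14.0% of all 32851 promoters in the table. TATAAA was found in 10 of 75, or 13.3%, against 12.4% of all promoters. The homeodomain core TAATTA, which reads the same on both strands, was found in 2.67% of member promoters and 4.84% of all. The matches are a description of letters, not of bound sites. By family, 4 of 10 MMP promoters held the RUNX core, as did 1 of 6 for bone and tooth genes. It was found in 1 of 8 basement membrane collagen promoters and 2 of 22 of other collagens. None was found in 8 fibrillar collagen, 10 ADAMTS, 6 laminin, 4 ADAMTS-like promoters and 1 fibrillin promoter. No family was tested against all promoters.

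In whole MOE the most abundant members included type I collagen, Sparc, Ibsp and Ifitm5 of bone. By mean level over the 6 libraries the order was Col1a1, Sparc, Ibsp, Col1a2, Mmp13, Col3a1, Mmp2 and Ifitm5. In all, 13 members averaged 100 or more and 23 averaged under 5. Member reads made up 0.399% of all recovered reads in KO odor and 1.11% in KO water, 1.32% in Het odor and 0.881% in Het water, and 1.02% in WT odor and 0.881% in WT water. Col1a1 alone took 0.0653% of reads in KO odor, and between 0.210% and 0.420% in the other 5 libraries.

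All 6 bone and tooth genes were lowest in KO odor. Ibsp, the acidic bone sialoprotein of mineralizing osteoblasts (ENSMUSG00000029306), stood at 833 in KO odor and 2624 in KO water, 2205 in Het odor and 2135 in Het water, and 2338 in WT odor and 2299 in WT water. The other 5 libraries thus lay close together, and KO odor lay below all of them. Sparc, the collagen-binding osteonectin, was 1126 in KO odor and 2951 in KO water, 3709 in Het odor and 2813 in Het water, and 2573 in WT odor and 2753 in WT water. Ifitm5, a membrane protein of bone-forming osteoblasts (ENSMUSG00000025489), was 50.7 in KO odor and 332 in KO water, 274 in Het odor and 213 in Het water, and 214 in WT odor and 200.1 in WT water. Both genes repeated the order of Ibsp in that KO odor alone was low. Alpl, the alkaline phosphatase that frees phosphate for mineral, was 61.1 in KO odor and 87.5 in KO water, 159 in Het odor and 73.8 in Het water, and 108 in WT odor and 84.5 in WT water. Runx2, the transcription factor that sets the osteoblast lineage, varied least, at 3.50 in KO odor and 4.85 in KO water, 4.32 in Het odor and 4.19 in Het water, and 3.60 in WT odor and 3.71 in WT water. Its KO odor value was the lowest by a margin too small to set it apart from WT odor.

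Dspp, the precursor of the dentin matrix proteins of teeth (ENSMUSG00000053268), had the widest range of the bone and tooth genes. It stood at 3.83 in KO odor and 133 in KO water, 18.2 in Het odor and 6.74 in Het water, and 114 in WT odor and 13.6 in WT water. KO water and WT odor were high and the other 4 libraries low, so neither genotype nor treatment sorted the values. Odor over water was 0.0287 in KO, from 25 and 767 recovered reads, with an exact 95% interval of 0.0185 to 0.0428. It was 2.70 in Het (179 and 53 reads, interval 1.98 to 3.74) and 8.35 in WT (847 and 105 reads, interval 6.81 to 10.3). These intervals cover counting error only, and each group had 1 library.

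**Figure D1:**
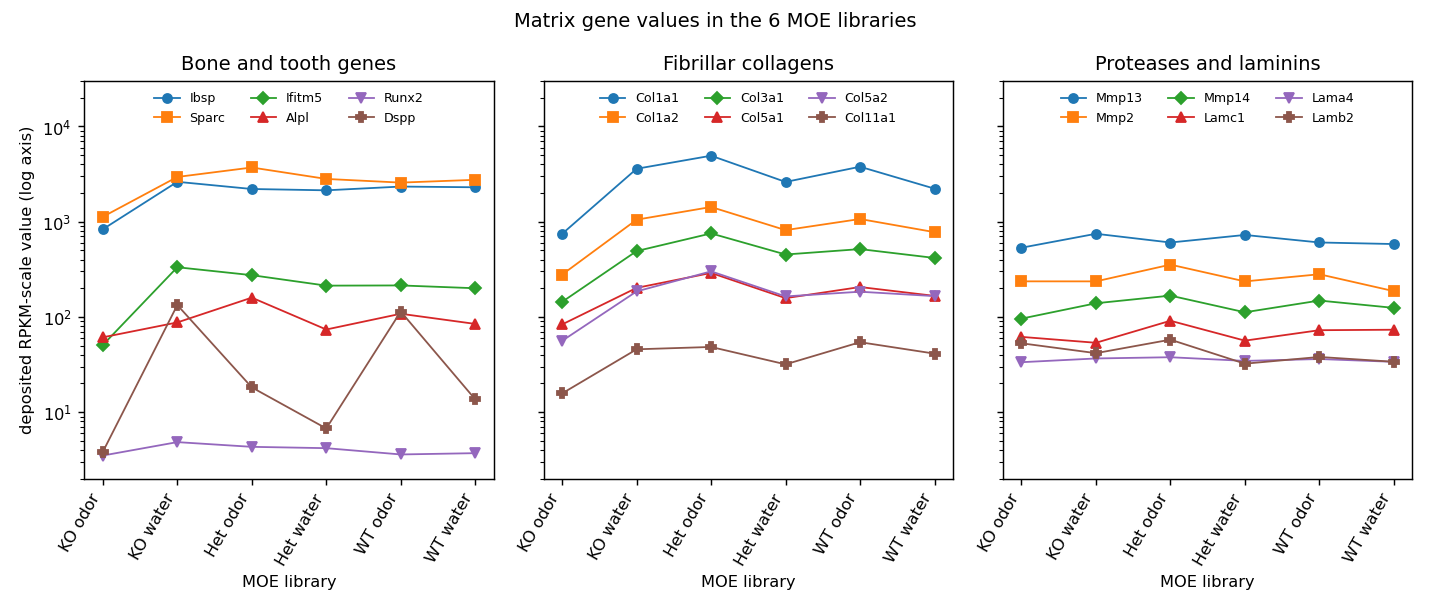
Deposited RPKM-scale values (log axis) of 18 members in the 6 MOE libraries, 1 point per library. Ibsp, Sparc, Ifitm5 and the fibrillar collagens dip in KO odor alone, Dspp peaks at 133 in KO water and 114 in WT odor, and Mmp13 and Lama4 vary less than 1.5-fold.

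Fibrillar collagens followed the bone genes. Col1a1, the main chain of type I collagen in bone and dentin (ENSMUSG00000001506), was 746 in KO odor and 3596 in KO water, 4931 in Het odor and 2615 in Het water, and 3778 in WT odor and 2223 in WT water. Col1a2, which encodes the other type I chain, was 278 in KO odor and 1050.1 in KO water, 1427 in Het odor and 816 in Het water, and 1067 in WT odor and 777 in WT water. Col3a1, the collagen of soft connective tissue and vessels, was 144 in KO odor and 492 in KO water, 753 in Het odor and 452 in Het water, and 516 in WT odor and 416 in WT water. In all 3 genes KO odor was the lowest library, Het odor the highest, and odor exceeded water in Het and in WT. Col5a1, Col5a2, Col11a1 and Col11a2, whose chains regulate fiber diameter, and Col24a1 were also lowest in KO odor, where they ran from 8.49 for Col11a2 to 83.4 for Col5a1. Of the 11 fibrillar collagens, 10 were lowest in KO odor. The exception was Col27a1, a cartilage collagen, which was lowest in Het water at 2.09 and stood at 3.07 in KO odor.

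Among the basement membrane collagens, 5 of 6 were lowest in KO odor, with smaller gaps. Col4a1, a chain of the type IV sheet, was 58.4 in KO odor and 67.2 in KO water, 109 in Het odor and 62.0 in Het water, and 92.9 in WT odor and 77.5 in WT water. Its partner chain Col4a2 had 52.3 in KO odor and 61.5 in KO water, 138 in Het odor and 80.1 in Het water, and 86.2 in WT odor and 78.9 in WT water. For both chains KO odor was the lowest library and Het odor the highest. Col15a1, a collagen that links the basement membrane to the fibers below, was 2.56 in KO odor, and between 6.33 and 10.4 in the other 5 libraries. Of the 22 other collagens listed, 13 were lowest in KO odor. They included Col10a1, the collagen of hypertrophic cartilage, at 8.25 in KO odor and 25.5 to 48.5 elsewhere. Col22a1, a collagen of tissue junctions, was 8.49 in KO odor, against 22.0 to 39.6 in the other 5 libraries. Col6a3, a chain of the beaded filaments of connective tissue, stood at 10.6 in KO odor and at 24.6 to 39.0 elsewhere.

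Laminins showed another order: 1 of the 11 was lowest in KO odor, 5 were lowest in KO water and 5 in Het water. Lama4, the laminin chain of vessel walls, ran only from 33.5 to 37.7 over the 6 libraries. Lamc1, the common gamma chain, was 61.7 in KO odor and 53.5 in KO water, 91.2 in Het odor and 56.4 in Het water, and 72.6 in WT odor and 73.4 in WT water. Het odor was high and KO water low. Lamc3, a gamma chain of low level, was 10.8 in KO odor and 1.29 in KO water, 3.99 in Het odor and 2.67 in Het water, and 2.46 in WT odor and 1.76 in WT water. It was the opposite of the fibrillar collagens, with KO odor far above the rest, on 104 recovered reads in KO odor and 11 in KO water. The fibrillins, which build the microfibrils of connective tissue, spanned 13.4 to 21.7 for Fbn1 and 13.3 to 25.1 for Fbn2, with KO odor at 19.0 for Fbn1 and 13.3 for Fbn2.

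The proteases had no common order. Mmp13, the collagenase of osteoblasts and hypertrophic cartilage, was 533 in KO odor and 747 in KO water, 605 in Het odor and 726 in Het water, and 605 in WT odor and 583 in WT water. Its KO odor value was the lowest, close to the values of the WT libraries. Mmp2, a gelatinase of stromal cells, was 236 in KO odor and 236 in KO water, 354 in Het odor and 236 in Het water, and 281 in WT odor and 187 in WT water. Mmp8, the collagenase of neutrophils, was 168 in KO odor and 46.2 in KO water, 115 in Het odor and 79.7 in Het water, and 89.9 in WT odor and 45.7 in WT water. Mmp8 was higher with odor than with water in each genotype. Mmp9, a gelatinase of osteoclasts and neutrophils, was 96.9 in KO odor and 146 in KO water, 283 in Het odor and 91.2 in Het water, and 108 in WT odor and 90.7 in WT water. Het odor alone was high for Mmp9. Adamts1, a protease that cuts proteoglycans, was 24.0 in KO odor and 8.63 in KO water, 12.3 in Het odor and 8.89 in Het water, and 17.1 in WT odor and 11.1 in WT water. Adamts1 was thus also higher with odor in each genotype. The share of all genes with such an order was not counted, and neither Mmp8 nor Adamts1 passed the test of odor against water below.

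**Figure D2:**
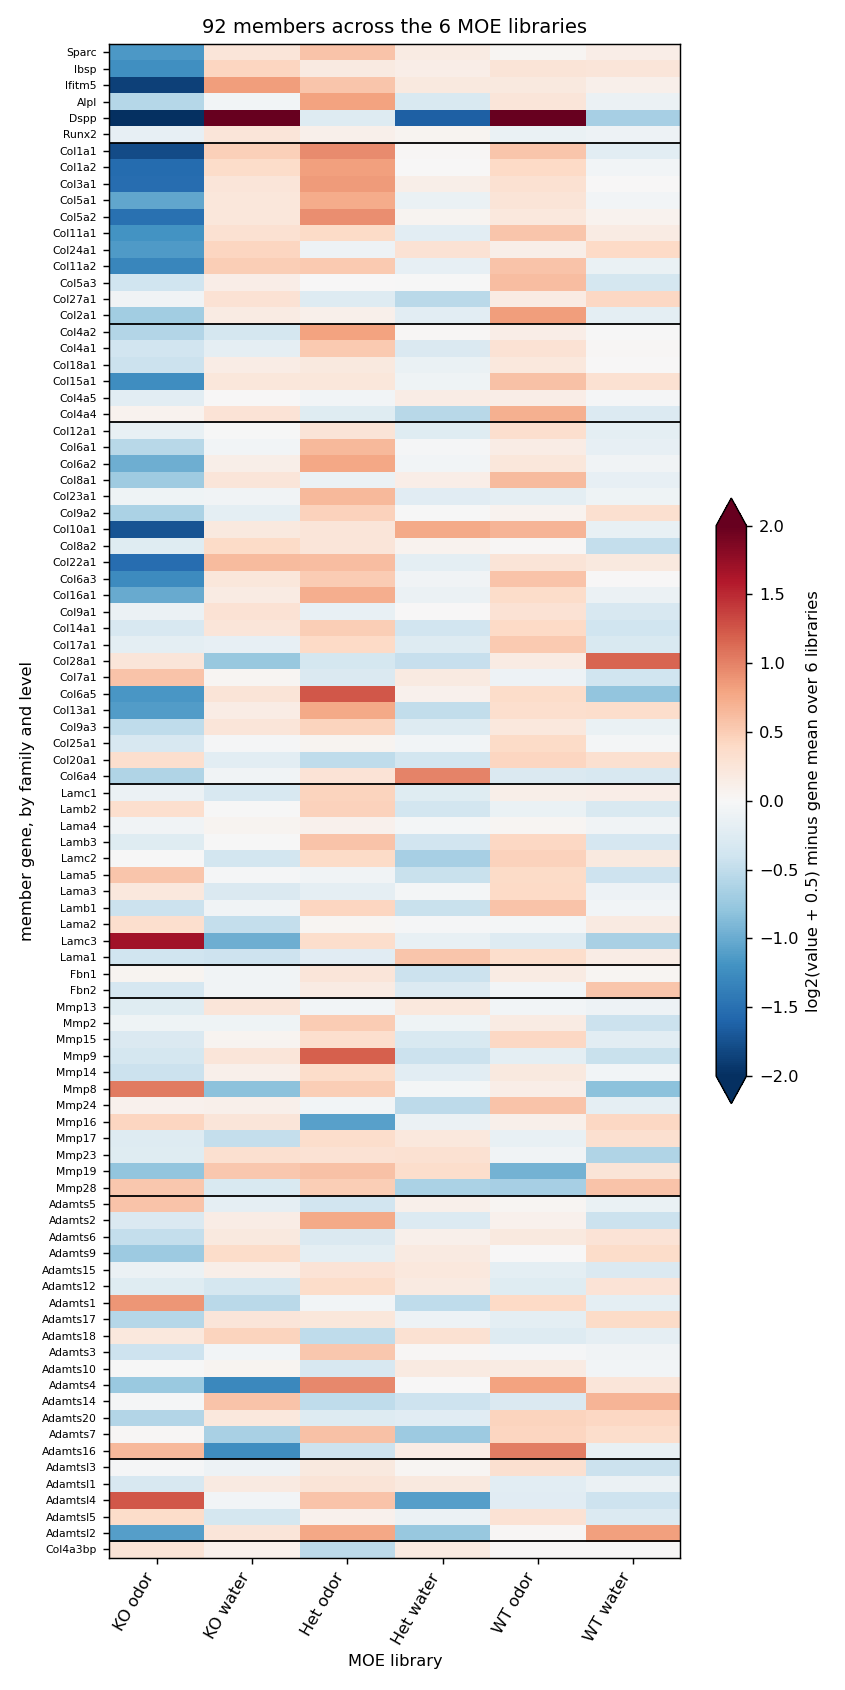
Log2(value + 0.5) of each of the 92 members minus its mean over the 6 MOE libraries, with members down the page by family and level and libraries across (values beyond 2 either way share the end color). The KO odor column is blue through most bone genes and collagens, and mixed through laminins, MMPs and ADAMTS genes.

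Counted over the libraries, 45 of the 92 members had their lowest value in KO odor, where 17.6% of all genes did. Het odor held the highest value of 35 of 92 members, against 30.6% of all genes. The share of members highest in Het odor was near that of all genes. Mature neuron markers (8 of 8 listed) summed to 26364 in KO odor and 19566 in KO water, 5496 in Het odor and 9648 in Het water, and 17065 in WT odor and 23472 in WT water. The neuron sum was thus highest in KO odor, where most bone genes and fibrillar collagens were lowest, and lowest in Het odor. Its part in these values was not tested.

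Within each genotype, odor was set against water. All 6 bone and tooth genes and all 11 fibrillar collagens were lower with odor in KO, whereas 6 and 10 of them were higher with odor in Het and 4 and 9 in WT. At least 2-fold lower with odor in KO were 23 of 92 members, against 4.1% of all genes, and 5 members were at least 2-fold higher, against 5.4%. In Het 11 members were at least 2-fold higher with odor (4.26% of all genes) and 0 were lower (6.29%). In WT 4 were higher (5.22%) and 3 lower (7.09%). On the log2(value + 0.5) scale the median odor over water of the members was -0.38 in KO, 0.42 in Het and 0.25 in WT, beside 0.03 in KO, 0.03 in Het and -0.01 in WT for all genes. The fibrillar collagens had medians of -1.56 in KO, 0.69 in Het and 0.39 in WT. The bone and tooth genes had medians of -1.52 in KO, 0.38 in Het and 0.06 in WT. Laminins did not share the low KO value, with medians of 0.34 in KO, 0.50 in Het and 0.27 in WT. Each of these ratios rests on 1 library per treatment.

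**Figure D3:**
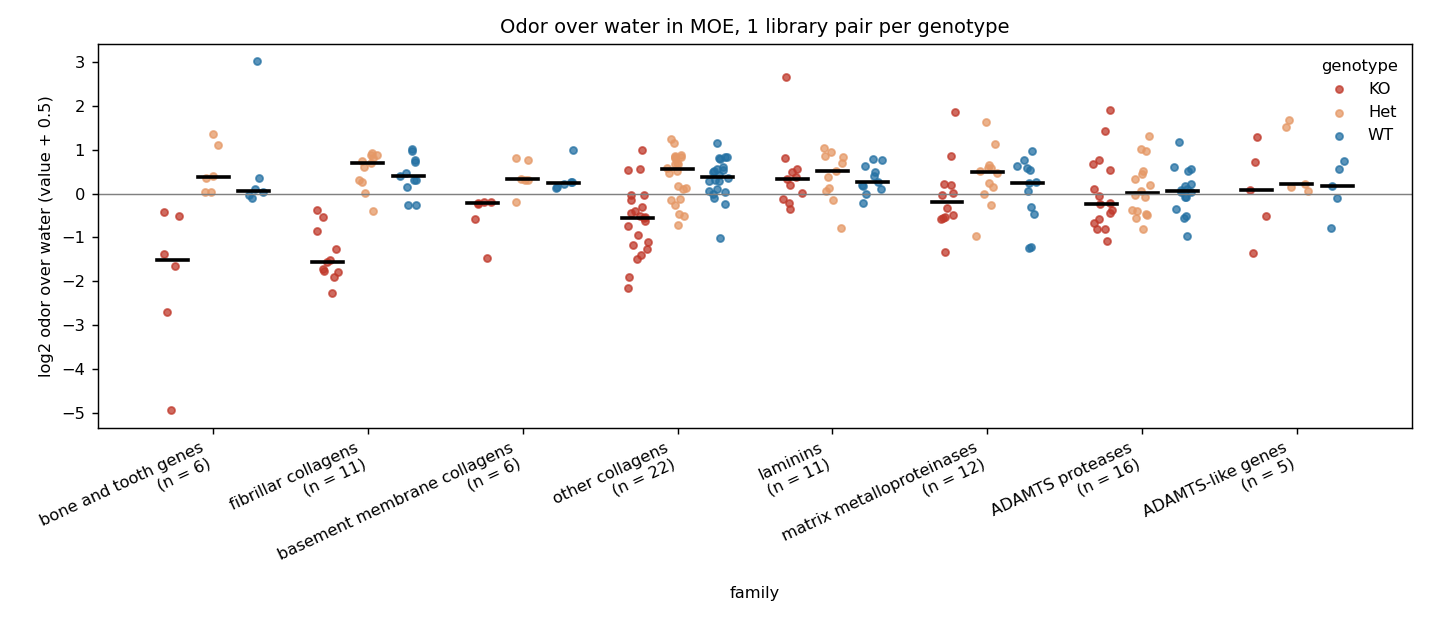
Log2 ratio of odor over water in MOE for every member, by family and genotype (KO left, Het middle, WT right), with the median as a black bar and n genes per family. Fibrillar collagens lie below 0 in KO (median -1.56) and mostly above it in Het (0.69) and WT (0.39), while laminins lie mostly above 0 in all 3 genotypes.

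The difference itself, the odor effect in KO against the shared effect in Het and WT, was tested with limma over 14602 genes. No gene of the table passed an adjusted p of 0.05, members included (0 of 92, 0% of all genes in either direction). At an unadjusted p under 0.05, 24 members were lower and 1 was higher, beside 3.36% of all genes lower and 3.75% higher. The same test on recovered reads (voom) also called 0 members, with 24 lower and 1 higher at an unadjusted p under 0.05. The median difference over the 92 members was -0.66 and 72 were negative. By family, counted in either direction, 5 of the 6 bone and tooth genes, 8 of 11 fibrillar collagens and 7 of 22 other collagens were past the unadjusted threshold. So were 4 of 12 MMPs, 1 of 16 ADAMTS proteases and none of the 11 laminins. The test took its error from the difference between the Het and WT odor effects, with 1 residual degree of freedom. The limma fit then drew each gene's error toward a trend over all genes. Every value of this difference rests on the single KO odor library and the single KO water library.

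Dspp had the largest difference, -7.14 ± 0.80 on the log2 scale (SE; limma adjusted p = 0.232). In order of p, the next negative members were Ifitm5 with -2.93 ± 0.33, Col1a1 with -3.11 ± 0.42 and Col1a2 with -2.55 ± 0.35, at the same limma adjusted p of 0.232. Col3a1 had -2.29 ± 0.35 (limma adjusted p = 0.256). In each of these 5 genes KO odor was below KO water while odor was above water in Het and WT. In the other direction stood Mmp8 with 1.11 ± 0.39, Lamc3 with 2.21 ± 0.93 and Adamts5, an aggrecan-cutting protease, with 0.91 ± 0.48. Mmp16, a membrane-bound MMP, had 0.84 ± 0.48 and Col28a1, a collagen of peripheral nerve, 1.45 ± 0.90, with limma adjusted p between 0.665 and 0.789 for these 5 genes. Further members at least 4-fold apart between odor and water in some genotype were Col22a1, Adamts16 and Adamts7. Col22a1 was 8.49 in KO odor and 39.6 in KO water (86 and 354 reads, ratio 0.214 with an interval of 0.167 to 0.272). Adamts16 was 1.67 in KO odor and 0.0825 in KO water (23 reads and 1 read, ratio 20.3 with an interval of 3.29 to 836). Adamts7 was 1.90 in Het odor and 0.465 in Het water (ratio 4.09). Adamts16 and Adamts7 are ADAMTS proteases of low level.

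For odor against water over all genotypes, 2 genes of the table passed limma's adjusted p of 0.05, or 0.0137% of all genes higher and 0% lower, and 0 members did. At an unadjusted p under 0.05, 2 members were higher and 0 lower, beside 3.01% of all genes higher and 1.86% lower. Without the KO odor library, 14 members were higher (15.2%, against 4.60% of all genes) and 0 lower, with 0 past the adjusted threshold. On recovered reads (voom) 0 members passed, and without adjustment 4 were higher and 2 lower at p under 0.05. Mmp8 had 1.12 ± 0.28 and Adamts1 0.82 ± 0.32 (log2 ± SE, limma adjusted p = 0.882), with odor above water in 3 of 3 genotypes. Adamtsl4, an ADAMTS-like protein of microfibrils, had 1.05 ± 0.45, Mmp2 0.39 ± 0.18 and Lama5, an epithelial laminin chain, 0.58 ± 0.26. On the negative side were Adamts9 (-0.61 ± 0.26), Col24a1 (-0.74 ± 0.32), Mmp19 (-0.77 ± 0.45), Adamts6 (-0.38 ± 0.22) and Ibsp (-0.53 ± 0.37), at the same limma adjusted p of 0.882. The median over the members was 0.03, with 49 of 92 above 0. It was 0.37 without the KO odor library, which also drops KO water from the estimate, and Ibsp then stood at 0.04.

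Beside Mmp8 and Mmp9, markers of bone marrow myeloid cells (9 of 10 listed, among them the granule genes Camp, Ltf, Mpo and Ngp) summed to 4206 in KO odor and 4043 in KO water, 7388 in Het odor and 4314 in Het water, and 5770.5 in WT odor and 2112 in WT water. The sum was higher with odor in every genotype, by little in KO. There S100a8, at 1761 with odor and 1415 with water, and Ltf, at 779.7 with odor and 547 with water, were higher with odor, but 5 of the 9 markers were lower, among them Ngp at 336 with odor and 445 with water, and the median log2 ratio was -0.21. The part of these cells in the Mmp8 and Mmp9 values was not tested.

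In the comparison of KO with WT, treatment as a block, 0 of 92 members passed limma's adjusted p of 0.05, as 0% of all genes did in either direction. The smallest adjusted p of limma among the members was 0.999982. At an unadjusted p under 0.05, 1 member, Adamts4, was lower (0.966% of all genes) and 0 were higher (1.27%). Without the KO water library, 25 members were lower (27.2%, against 2.96% of all genes) and 2 higher, and without KO odor 0 were lower and 2 higher, with 0 past the adjusted threshold in either case. On recovered reads (voom) the counts were 0 passed, and 1 lower and 0 higher at an unadjusted p under 0.05. Adamts4, an aggrecanase, was 1.70 in KO odor and 1.02 in KO water, 6.71 in Het odor and 3.19 in Het water, and 5.97 in WT odor and 3.87 in WT water. The difference was -1.54 ± 0.47 (log2 ± SE), with only 19 recovered reads in KO odor and 10 in KO water. Col9a2, a cartilage collagen, had -0.61 ± 0.29, Col4a2 -0.54 ± 0.29, Col15a1 -0.96 ± 0.58 and Col10a1 -1.03 ± 0.63. Without KO odor Col4a2 stood at -0.19 and Col15a1 at -0.077, and without KO water at -0.88 for Col4a2 and -1.84 for Col15a1. On the positive side were Adamtsl4 (0.91 ± 0.55), Lamb2, a laminin chain of synapses and kidney (0.38 ± 0.27), Mmp8 (0.46 ± 0.34), Adamts18 (0.55 ± 0.41) and Col7a1, the anchoring fibril collagen (0.55 ± 0.46).

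The KO over WT ratios differed between treatments, a difference that was tested only as the odor effect in KO against Het and WT. With odor, 27 of 92 members were at least 2-fold lower in KO than in WT (4.51% of all genes) and 3 were higher (6.23%). With water, 3 were at least 2-fold lower (5.75%) and 2 were higher (3.86%). All 11 fibrillar collagens were lower in KO with odor (median -1.70), whereas 10 of 11 were higher in KO with water (median 0.28). The bone and tooth genes likewise had a median of -1.34 with odor, and of 0.27 with water, where all 6 were higher in KO. Over the 92 members limma's median was -0.25, with 66 negative. It was 0.17 without KO odor and -0.53 without KO water. These ratios use the same KO odor and KO water libraries as the odor comparison above.

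Het against WT gave 0 members past limma's adjusted p of 0.05, with 0% of all genes in either direction. At an unadjusted p under 0.05, 1 member, Mmp16, was lower (3.99% of all genes) and 0 were higher (2.71%). On recovered reads (voom) 0 passed, with 1 lower and 0 higher at an unadjusted p under 0.05. Mmp16 stood at 21.7 in Het odor and 43.1 in Het water, and at 50.2 in WT odor and 62.6 in WT water, a difference of -0.86 ± 0.33 (log2 ± SE, limma adjusted p = 0.706). Its KO values were 63.3 with odor and 55.3 with water, near those of WT. Also negative were Col28a1 (-1.07 ± 0.59), Mmp24 (-0.49 ± 0.27), Col20a1 (-0.82 ± 0.52) and Col27a1 (-0.69 ± 0.48). On the positive side were Adamts15 (0.48 ± 0.28), Mmp8 (0.57 ± 0.34), Mmp23 (0.63 ± 0.38), Col6a4 (0.93 ± 0.59) and Mmp2 (0.34 ± 0.22), all with limma adjusted p between 0.706 and 0.727. With odor, 3 of 92 members were at least 2-fold higher in Het than in WT (7.72% of all genes) and 3 lower (7.05%), and with water 1 was higher (4.31%) and 5 lower (3.86%). Mmp16 and Mmp24 were also among the most abundant members in sorted neurons. Of the others in that group, Adamts15, Mmp2 and Col4a2 (0.35 ± 0.29) were positive and Col4a3bp (-0.18 ± 0.28) was negative. Mmp15 stood at log2 ratios of -0.08 with odor and -0.10 with water, and Lamc1 at 0.33 with odor and -0.38 with water. The mature neuron sum was lower in Het than in WT with either treatment. Its part in these differences was not tested.

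Genes of the same tissue that are not members were set beside them from fixed lists. None of the lists' genes passed limma's adjusted p for the odor effect in KO against Het and WT. Of 21 listed mineralized tissue genes, 17 had a negative difference, and 5 were past an unadjusted limma p of 0.05 in either direction. Bglap, the osteocalcin of osteoblasts, was 251 in KO odor and 2159 in KO water, 1735 in Het odor and 1774 in Het water, and 1017 in WT odor and 1274 in WT water. Its near-identical copy Bglap2 had the same order, and reads may have been split between the copies. Spp1, the osteopontin of bone and other tissues, was not low, at 1098 in KO odor and 1105 in KO water. Of 23 genes for collagen folding, processing and crosslinking, 21 had a negative difference, and 4 were past the unadjusted threshold in either direction. Serpinh1, the collagen chaperone of the endoplasmic reticulum, was 365 in KO odor and 1541 in KO water, 2595 in Het odor and 1479.8 in Het water, and 1538 in WT odor and 2000.2 in WT water. Of 5 listed protease inhibitors, 3 had a negative and 2 a positive difference, and 1 was past the unadjusted threshold. Timp1, an MMP inhibitor, was 12.4 in KO odor, and 46.9 to 60.4 in the other 5 libraries. Only Timp1 of these 5 was lowest in KO odor, while Timp3 was highest there, at 452 against 270 to 403 elsewhere. KO odor alone was low for Bglap, Serpinh1 and Timp1, as for the fibrillar collagens.

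Enamel genes followed Dspp only in part. Ambn, an enamel matrix protein, was 2.43 in KO odor and 116 in KO water, 12.9 in Het odor and 31.7 in Het water, and 679.6 in WT odor and 35.5 in WT water. Amelx, the main enamel protein, was 9.03 in KO odor and 118 in KO water, 10.3 in Het odor and 38.2 in Het water, and 625 in WT odor and 36.9 in WT water. As for Dspp, WT odor and KO water were the highest libraries and KO odor the lowest. Odam, a protein of the enamel organ that is also secreted by other epithelia, was 1645 in KO odor and 1226 in KO water, 1234 in Het odor and 2226 in Het water, and 867 in WT odor and 1775 in WT water, and so did not share the peak in WT odor.

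Some markers of other cell types also set KO odor apart. Osteoclast markers (8 of 10 listed) summed to 696 in KO odor and 1714 in KO water, 2007 in Het odor and 1329 in Het water, and 1368 in WT odor and 1166 in WT water. Ctsk and Acp5 made up most of that sum, and 4 of the 8 markers, these included, were lowest in KO odor, while Nfatc1 was highest there at 142, against 72.0 to 138 in the other 5 libraries. Platelet and megakaryocyte markers (5 of 5) summed to 42.1 in KO odor, and to between 148 and 343 in the other 5 libraries, with 3 of the 5 markers lowest in KO odor. Skeletal muscle markers (3 of 7 listed: Acta1, Ckm and Myh1) summed to 348 in KO odor and 46.9 in KO water, 24.3 in Het odor and 22.2 in Het water, and 14.0 in WT odor and 29.2 in WT water. Fibroblast markers (7 of 7) summed to 918 in KO odor, against 1468 to 1867 in the other 5 libraries, a gap that came from Lum. Without Lum, a sum added after the values were seen, they stood at 378 in KO odor and 419 in KO water, 545 in Het odor and 468 in Het water, and 442 in WT odor and 350.2 in WT water. Pdgfra was highest in KO odor, at 56.4, and 2 of the 7 markers were lowest there. Endothelial markers (7 of 7) did not single out KO odor, at 136 there and 85.8 to 179.9 elsewhere. Horizontal basal cell markers (5 of 5) summed to 96.0 in KO odor, and to between 141 and 313 in the other 5 libraries. All 5 were lowest in KO odor. The osteoclast and platelet sums, through some of their markers, and the basal cell sum, through all 5, were thus lowest in KO odor. The muscle sum was highest in that library, where bone genes and fibrillar collagens were lowest. The part of any of these cell types in the members' values was not tested.

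**Figure D4:**
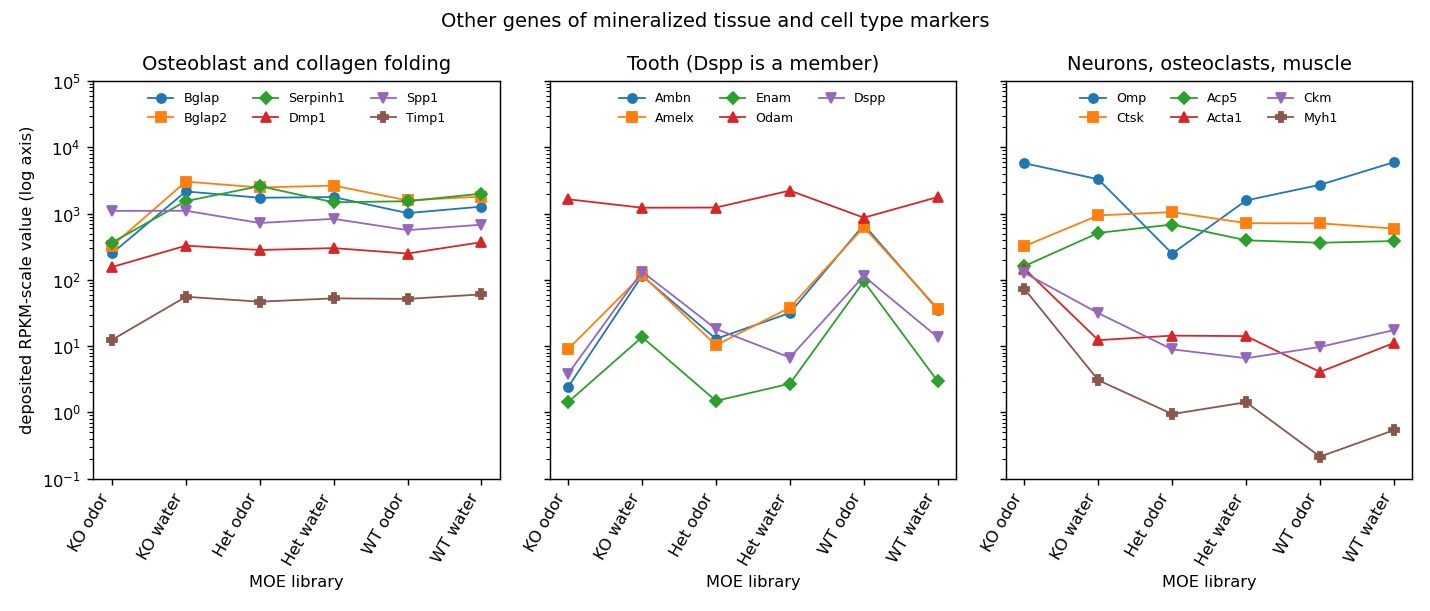
Deposited RPKM-scale values (log axis) in the 6 MOE libraries for genes beside the members: osteoblast and collagen folding genes (left), tooth genes with the member Dspp (middle), and neuron, osteoclast and muscle markers (right). Bglap (251), Serpinh1 (365) and Ctsk are lowest in KO odor, where Acta1, Ckm and Myh1 are highest, and Ambn and Amelx peak in WT odor.

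In sorted mOSN the members that led in MOE were low and others led. Col1a1 was 14.7 in KO, 14.2 in Het and 8.52 in WT, and Sparc was 7.00 in KO, 6.30 in Het and 8.91 in WT. Ibsp, Ifitm5 and Mmp13 were not listed in the mOSN table. The most abundant members were membrane-bound MMPs: Mmp24 at 168 in KO, 191 in Het and 166 in WT, and Mmp15 at 157 in KO, 173 in Het and 148 in WT. Mmp16 was 112 in KO, 153 in Het and 214 in WT, with KO lowest and WT highest. After them came Col4a3bp (56.5 in KO, 64.5 in Het and 67.6 in WT), Lamc1 (33.9 in KO, 41.3 in Het and 41.5 in WT), Adamts15 (28.3 in KO, 29.8 in Het and 30.1 in WT), Mmp2 and Col4a2. Neighbours in this order cannot be told apart, since a pooled value has no error.

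Set beside MOE, from tables that were normalized separately and so without a test, 19 of the 85 members in both tables had a higher WT value in mOSN than in WT water MOE. For 26 the mOSN value was at most 0.1 of the MOE value. The ratio was 3.58 for Mmp24 and 3.42 for Mmp16, against 0.00383 for Col1a1 and 0.00324 for Sparc.

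Most members had a higher pooled value in KO than in WT mOSN. At least 2-fold higher were 53 of 93, against 17.5% of all genes, and 0 were lower, against 2.84%. The median log2 ratio was 1.07 for members and -0.13 for all genes, and 84 members were above 0 and 9 below. After quantile normalization 61 were above and 32 below, with 15 members at least 2-fold higher and 4 lower and a member median of 0.16. Most members were of low level, and low genes as a class were higher in KO. Among genes with a mean value of 1 to 20, 52 of 84 members were at least 2-fold higher, against 42.5% of all such genes, and 0 were lower, against 1.5%, with medians of 1.13 for members and 0.81 for all. Among genes at 20 or more, 1 of 9 members was higher, against 2.16% of all, and 0 were lower, against 3.67%. That gene was named after its values were seen: Lamb2, at 34.0 in KO, 24.3 in Het and 9.64 in WT. The values ran in the order KO above Het above WT for 60 of 93 members, against 21.9% of all genes. It was the same order as the share of libraries made with NuGEN. The share of low genes in this order was not counted apart, although most members were low.

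The largest ratios of KO over WT were those of Mmp25, the membrane-bound MMP of leukocytes, at 24.0 in KO, 14.1 in Het and 2.48 in WT, and of Col17a1, the hemidesmosome collagen of basal keratinocytes, at 11.6 in KO, 4.20 in Het and 1.21 in WT. Mmp19 had 23.0 in KO, 10.8 in Het and 3.71 in WT. Adamtsl2 stood at 14.6 in KO, 9.17 in Het and 2.53 in WT, and Adamts2, which trims the ends of procollagen, at 14.1 in KO, 10.5 in Het and 2.59 in WT. In all 5 genes Het lay between KO and WT. The lowest log2 ratios of KO over WT were -0.93 for Mmp16, -0.84 for Col6a5, -0.33 for Sparc, -0.31 for Col27a1 and -0.29 for Lamc1, none of them 2-fold.

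In Het against WT mOSN, 11 of 93 members were at least 2-fold higher (6.89% of all genes) and 2 lower (2.5%), with a median log2 ratio of 0.28 for members and -0.02 for all genes. At a mean value of 1 to 20, 10 of 84 members were higher (15.3% of all such genes) and 2 lower (4.54%), and at 20 or more 1 of 9 was higher (1.77%), again Lamb2, and 0 were lower (1.25%). The largest ratios were again those of Mmp25 and Adamts2, followed by Dspp at 2.91 in Het and 0.510 in WT, Adamts8 at 11.1 in Het and 2.97 in WT, and Adamtsl2. The lowest were Mmp8 at 1.00 in Het and 5.40 in WT, and Adamts10, at 0.278 in Het and 1.09 in WT. Col6a5, Col9a1 and Col27a1 followed, at log2 ratios of -0.89, -0.76 and -0.73.

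Most marker lists of cells other than mature neurons were also higher in KO mOSN. Their sums ran in the order KO above Het above WT for 8 of 11 lists. These 11 leave out the mineralized tissue, tooth and cartilage lists, which are given below. Horizontal basal cell keratins and Trp63 (4 of 5 listed) summed to 67.7 in KO, 21.0 in Het and 8.64 in WT. Endothelial markers (5 of 7) summed to 52.1 in KO, 28.0 in Het and 20.9 in WT, and fibroblast markers (4 of 7) to 68.9 in KO, 56.4 in Het and 41.6 in WT. Mature neuron markers (8 of 8) summed to 61292 in KO, 84026 in Het and 89370 in WT. The 4 Y-linked genes listed summed to 94.7 in KO, 246 in Het and 454 in WT. Against that order, osteoclast markers (6 listed, mostly Nfatc1) summed to 142 in KO, 171 in Het and 190 in WT. Erythroid markers summed to 2270.0 in KO, 1545 in Het and 2223 in WT, and myeloid markers to 102 in KO, 47.2 in Het and 51.1 in WT. Mineralized tissue genes (12 listed) summed to 566 in KO, 581 in Het and 507 in WT. Tooth genes (2 listed) summed to 7.11 in KO, 3.13 in Het and 6.59 in WT, so both broke that order. Cartilage genes (5 listed) kept it, at 81.0 in KO, 47.2 in Het and 41.5 in WT. The kit also ran with genotype, and the part of these cells in the members' values was not tested.

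**Figure D5:**
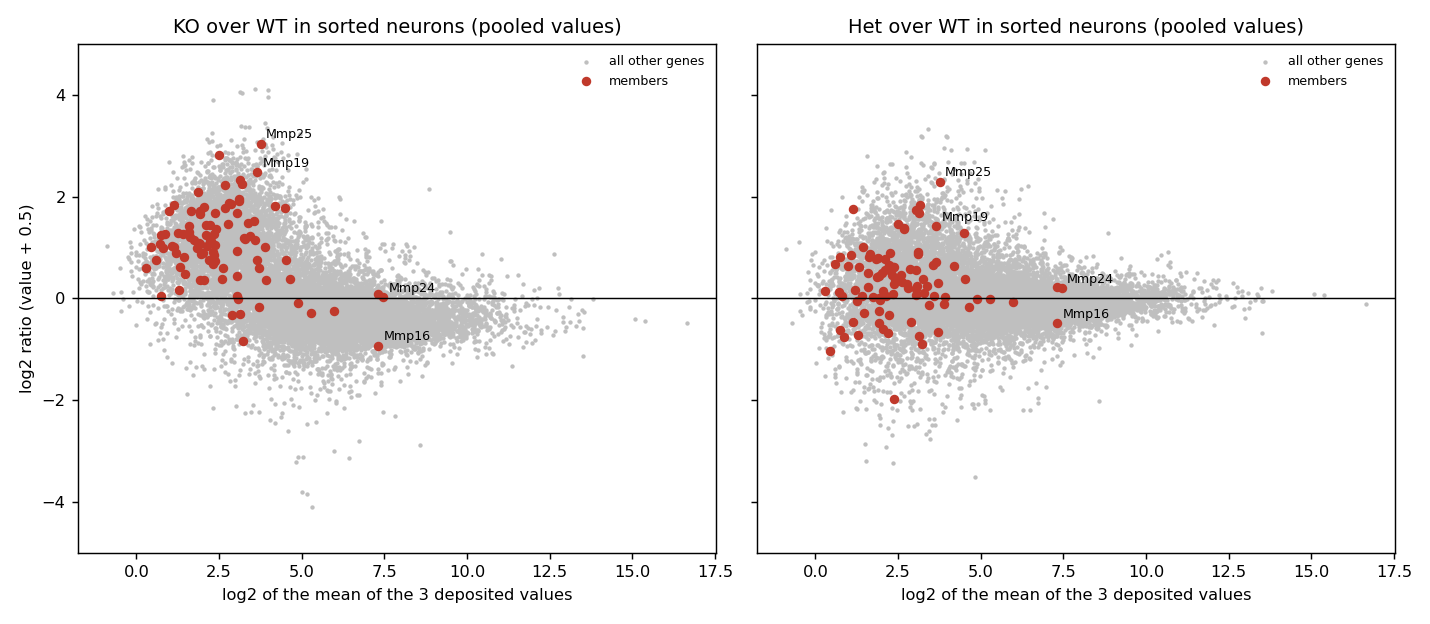
Log2 ratio of the pooled mOSN values (value + 0.5), KO over WT (left) and Het over WT (right), against log2 of the mean of the 3 values, for members (red) and all other genes (grey). Members of low level lie mostly above 0 in KO over WT, as do other low genes, while Mmp24 sits at 0 and Mmp16 at -0.93.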

How the data were processed

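RNA-seq values of 12 samples were used. Both deposited tables hold values the authors call RPKM, and the formula is not given in the sources used here. The submitters' processing notes name builds mm9 and NCBIM37 and, in no stated role, featureCounts, Picard 1.64, DESeq, Bowtie2 2.1 and STAR 2.3.0. The MOE values were whole multiples of 1 read for 100% of 14613 genes (tolerance 1e-05 of a read, wider for high counts). This gave recovered reads, exact up to a divisor shared by a gene's 6 values. How the 2 mOSN libraries of a genotype were pooled is not stated, so the planned limma test could not be run there, and members at least 2-fold apart were counted. Of 14751 mOSN entries, 7 held no value.

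Values were analysed as log2(value + 0.5), which understates fold changes of low genes, and 14602 MOE and 14738 mOSN genes that reached 0.5 in 2 or more columns were kept. MOE comparisons used limma 3.58.1 in R 4.3.3 with a mean-variance trend, two-sided, with Benjamini-Hochberg adjustment over all genes and a threshold of 0.05. The odor comparison was blocked by genotype, and the genotype comparisons by treatment (2 residual degrees of freedom), and the odor effect in KO took Het and WT as alike (1 residual degree of freedom). A response that depends on genotype counts as error in the tests with 2 degrees. Ratios of reads have exact 95% intervals, which cover counting error only. The fit was tested on simulated data. Genes named by a fixed choice were the 6 in the membership rule, the 8 most abundant in each table and members 4-fold apart between odor and water. This choice also took the 5 members of smallest p in each direction per MOE comparison and the 5 most extreme mOSN ratios in each direction. Outside it, further members were given with values, among them Mmp9, Col4a1, Col6a3, Lama4, Fbn1 and Fbn2. Members and lists were chosen with earlier results of these data known. Alternatives covered pseudocount, filter, scaling, model and left-out libraries.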

Additional observations from a re-analysis of the deposited data

Results flagged for a closer look

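In 2 members, the odor value was at least 2-fold below the water value in KO and at least 2-fold above it in both Het and WT. Dspp had an odor effect in KO that differed from that in Het and WT by -7.14 on the log2 scale, with odor over water at -4.95 in KO, 1.37 in Het and 3.02 in WT, and limma's test of that difference did not pass (adjusted p = 0.232). Col6a5, a collagen VI chain, differed by -2.56, with odor over water at -1.41 in KO, 1.15 in Het and 1.15 in WT (limma adjusted p = 0.640). Its values were 1.69 in KO odor and 5.34 in KO water, 11.1 in Het odor and 4.71 in Het water, and 5.83 in WT odor and 2.35 in WT water.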

How the results depend on the processing

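No paired analysis was possible because no group has replicates that a number could match across groups (1 library per MOE group, 1 pooled column per mOSN genotype), beyond the genotype and treatment blocks already in the MOE tests. No setting changed a limma call for members, which stayed at 0. Leaving out libraries turned the sign of the median over members, which ranged from -0.53 to 0.17 for KO against WT, -0.31 to 0.22 for Het against WT and -0.0706 to 0.372 for odor against water. Of 40 values of named genes, 26 moved by over 1.5 times or turned, and 3 turned: Mmp8 (-0.10 to 1.01) and Col10a1 (-2.06 to 0.00885) in KO against WT and Ibsp (-0.815 to 0.0354) in odor against water. The members' median difference between the odor effect in KO and that in Het and WT ranged from -0.68 to -0.58 without Het or WT libraries. This difference could not be fitted without KO odor or KO water.

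In mOSN, quantile normalization left 15 members at least 2-fold higher and 4 lower in KO, and 7 higher in Het. With at least 1.5-fold as the bound, 2 were lower in KO, and 31 higher and 10 lower in Het. A pseudocount of 1 left 1 lower in Het. Median-ratio scaling moved the median of all genes for KO over WT to 0.00 and that of members to 1.18. The cause was not tested.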

Other observations

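Among matrix genes that are neither collagens nor proteases were the small leucine-rich proteoglycans, which bind collagen fibers. For 6 of 7 the odor effect in KO against Het and WT was negative. Of the 7, 3 were past an unadjusted limma p of 0.05 in either direction and 0 past limma's adjusted p. Lum, the lumican of connective tissue, was 539.8 in KO odor and 1448 in KO water, 1276 in Het odor and 1243 in Het water, and 1084 in WT odor and 1118 in WT water, so that KO odor alone was low. Aspn, the asporin of cartilage and tooth ligament, was lowest elsewhere, at 99.0 in KO odor and 89.0 in KO water, 36.2 in Het odor and 76.2 in Het water, and 79.7 in WT odor and 63.2 in WT water. Of 12 cartilage genes, 7 were listed in MOE, and they summed to 177 in KO odor and 174 in KO water, 267 in Het odor and 155 in Het water, and 309 in WT odor and 151 in WT water. The cartilage sum was thus higher with odor in Het and WT and nearly level in KO. Basement membrane partners such as nidogens summed to 335 in KO odor and 319 in KO water. Their sums were 488 in Het odor and 337 in Het water, and 403 in WT odor and 382 in WT water. In KO 5 of the 8 were higher with odor, and for 4 of 8 the odor effect in KO was above that in Het and WT.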
